A study of Arabidopsis thaliana with 18 samples.

Results

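Heat shock transcription factors (HSFs) are the proteins that switch on chaperone genes, and the 10 HSF genes described here are HSFA9, HSFA1A, HSFA1B, HSFA1D, HSFA1E, HSFA2, HSFA3, HSFB1, HSFB2B and HSFC1 of Arabidopsis thaliana. They were taken by gene identifier from the 27587 genes of the table, in which they account for 16 of 48268 transcripts, and they belong to a family of 21 HSF genes listed here. Each was measured by RNA-seq in whole seeds of 6 groups with 3 libraries each: seeds labelled ros1-4 and seeds of the wild type Col-0, each as dried mature seeds and in germination at stage II, with the seed coat ruptured, and stage IV, with the radicle protruding. The allele ros1-4 is a T-DNA insertion, in the Col-0 background, of the DNA demethylase gene ROS1, and it is the only allele measured. All seeds came from plants kept at the control temperature of 23 °C during seed development, each replicate pooled at least 100 seeds, the germinating seeds were imbibed with water in light, and no group was given a heat treatment.

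Plant HSFs bind heat shock elements, inverted repeats of the letters GAA and TTC in promoters. Class A members carry activator motifs: the HSFA1 proteins are held back by HSP70 and HSP90 chaperones and start the heat response, HSFA2 is induced by heat and prolongs the response, HSFA3 is activated through the drought and heat factor DREB2A, and HSFA9 is the seed member, switched on by the maturation regulator ABI3 during late embryo development, where it activates genes of small heat shock proteins. HSFB1 and HSFB2B lack the activator motif and repress HSF genes and their targets, and HSFC1 is the class C member of Arabidopsis, which also lacks that motif.

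Library totals were 18737837 to 20787603 estimated counts. ROS1, the disrupted gene, had 1219, 1466 and 1466 counts in mature seeds labelled ros1-4 against 2578, 2455 and 2547 in Col-0, but 1286, 1256 and 1221 against 256, 273 and 281 at stage II and 1134, 1203 and 1331 against 296, 312 and 252 at stage IV. Its total was therefore lower in the mature libraries labelled ros1-4 and higher in the germinating ones. Where the insertion lies relative to the reads was not examined. The total therefore does not check the labels, and the groups are called here by them. Of the libraries within a group, Col-0 stage II replicate 3 stood apart from replicates 1 and 2 (HSFA2 28 counts against 352 and 211), and at stage IV Col-0 replicates 2 and 3 had 1403 and 1239 counts of the heat-inducible chaperone gene HSP90.1 where replicate 1 had 297. Members' results that rest on these libraries are given with and without them. The 10 genes with the most counts took 6.85 to 7.67% of all estimated counts in germinating seeds. In mature seeds they took 33.3 to 36.0% under the label ros1-4 and 28.2 to 30.4% in Col-0. Levels are given as counts relative to the library total (CPM) scaled by TMM factors, which rest on the assumption that most genes do not differ between libraries. Scaling by the library total alone moved the median log2 difference of all genes to -0.34 in the comparison of the genotypes in mature seeds (-0.01 with TMM), and each member whose call in that comparison it changed is named below. Because whole seeds were sequenced, fewer cells of a type and less RNA per cell cannot be told apart.

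The sequences before 3 of the genes are shown because results below turn on these genes: HSFA9 nearly disappeared during germination, HSFA2 spread widely among germinating Col-0 seeds, and HSFA1E differed between the genotypes at stage II. HSFA9 (AT5G54070) lies at chr5:21943983-21945651 on the plus strand with 3 exons, HSFA2 (AT2G26150) at chr2:11135624-11137792 on the plus strand with 4 annotated transcripts, and HSFA1E (AT3G02990) at chr3:673428-676428 on the plus strand with 3 exons (TAIR10.1). The bases below end just before the first annotated base of each gene and are read 5′ to 3′, at chr5:21943683-21943982 for HSFA9, chr2:11135466-11135623 for HSFA2 (158 bases, up to the neighbouring gene) and chr3:673128-673427 for HSFA1E, and capitals mark the motifs found.
HSFA9: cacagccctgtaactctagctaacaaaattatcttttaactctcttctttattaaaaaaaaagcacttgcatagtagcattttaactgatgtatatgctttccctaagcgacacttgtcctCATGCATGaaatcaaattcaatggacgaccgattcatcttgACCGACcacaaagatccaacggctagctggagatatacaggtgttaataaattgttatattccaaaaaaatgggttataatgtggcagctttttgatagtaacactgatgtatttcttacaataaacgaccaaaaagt
HSFA2: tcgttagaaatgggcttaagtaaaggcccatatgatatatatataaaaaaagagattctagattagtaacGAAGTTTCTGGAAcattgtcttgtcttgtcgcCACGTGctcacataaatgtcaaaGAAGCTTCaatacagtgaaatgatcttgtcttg
HSFA1E: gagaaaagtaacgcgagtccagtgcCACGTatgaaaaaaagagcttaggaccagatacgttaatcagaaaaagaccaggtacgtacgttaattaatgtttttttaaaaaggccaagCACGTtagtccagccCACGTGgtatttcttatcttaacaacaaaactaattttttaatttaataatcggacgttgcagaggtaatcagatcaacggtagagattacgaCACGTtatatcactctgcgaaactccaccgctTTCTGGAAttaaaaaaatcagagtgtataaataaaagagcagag
The 7 motifs named here were searched on both strands in the 300 bases before each gene, and a match is a match of letters only. Before HSFA9 there were 2 overlapping matches of the RY repeat CATGCA, the letters bound by ABI3 and its relatives, at 179 and 177 bases from the gene, a motif that 10.3% of 27443 such windows hold, and 1 dehydration-responsive element ACCGAC at 138 bases (5.45% of windows). The window of HSFA2 held the heat shock element GAANNTTC at 88 and 33 bases (11.5% of windows) and TTCNNGAA at 83 bases (9.38%), which overlaps the first of them, as well as the G-box CACGTG at 56 bases (7.09%), whose letters hold the ABA-responsive core ACGTG on both strands. HSFA1E had 5 matches of ACGTG (25.6% of windows), 2 of them inside a CACGTG at 169 bases, and TTCNNGAA at 44 bases. Among the other members, ACGTG was matched 3 times before HSFA1B and 1 time before HSFA1D. The element GCCGAC (3.01% of windows) was matched 1 time before HSFA1A, at 120 bases, and none of the 7 before HSFA3, HSFB1, HSFB2B and HSFC1. These windows were not cut at neighbouring genes, which left 114 bases free before HSFA1A, 33 before HSFA3 and 0 before HSFC1. The match before HSFA1A thus lies within the neighbouring gene. The other members lie at chr4:9869818-9871646 (HSFA1A, AT4G17750, minus strand), chr5:5530195-5532889 (HSFA1B, AT5G16820, plus), chr1:11656964-11660471 (HSFA1D, AT1G32330, minus), chr5:971142-974326 (HSFA3, AT5G03720, minus), chr4:17440177-17442151 (HSFB1, AT4G36990, plus), chr4:7042354-7044708 (HSFB2B, AT4G11660, plus) and chr3:8941066-8942874 (HSFC1, AT3G24520, plus).

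HSFA9 was the most abundant HSF transcript of mature seeds and close to absent from germinating ones. The libraries labelled ros1-4 had 5008, 4736 and 5054 HSFA9 counts when mature, 1, 9 and 15 at stage II and 1, 2 and 9 at stage IV. Col-0 libraries had 3451, 3638 and 4140 counts of it when mature, 2, 1 and 0 at stage II and 1, 3 and 11 at stage IV. No germinating library of either label came near a mature one, and several germinating libraries held no more than 3 counts, which was taken as the floor. As length-scaled abundance (TPM), HSFA9 reached 213 ± 6.3 TPM in mature seeds labelled ros1-4 and 159 ± 16 TPM in mature Col-0 seeds (SD, n = 3 each). There 311 of 20211 and 521 of 20424 detected genes were at or above it. It made up no more than 0.388% of the summed TPM of the 21 HSF genes in any germinating library, but 52.7 to 57.0% in mature seeds labelled ros1-4 and 38.8 to 42.3% in mature Col-0 seeds.

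The fall of HSFA9 during germination was given as a ratio of summed counts per scaled library total, with a 95% Poisson interval that covers counting error only. In seeds labelled ros1-4 the level was 1590-fold lower than in mature seeds at stage II (1076 to 2455; 25 counts) and 3224-fold lower at stage IV (1847 to 6244; 12 counts). In Col-0 it was at least 2411-fold lower at stage II, since all 3 libraries were at or under 3 counts, and 1464-fold lower at stage IV (898 to 2646; 15 counts). Replicate 3 held 15 of the 25, 9 of the 12 and 11 of the 15 counts, and without it the level was 2652-fold lower at stage II and at least 4306-fold lower at stage IV under the label ros1-4, and at least 2489-fold lower at stage IV of Col-0. The intervals of both stages labelled ros1-4 overlapped. These ratios rest on TMM scaling, and by library total alone they were smaller. In mature libraries labelled ros1-4 HSFA9 then stood at 260, 248.5 and 265 CPM, in place of 499, 451 and 494. At stage II it then stood at 0.0483, 0.434 and 0.722 CPM, in place of 0.0364, 0.326 and 0.545. At stage II the libraries labelled ros1-4 held 25 counts together and those of Col-0 held 3. HSFA9 was left out of the test between the labels there for low counts, so an order among the groups of germinating seeds was not tested. The other 20 HSF genes together summed to 163 to 194, 157 to 160 and 145 to 162 TPM in mature, stage II and stage IV seeds labelled ros1-4, and to 231 to 243, 166 to 229 and 177 to 253 TPM in the same stages of Col-0. In TPM, which carries no TMM scaling, the rest of the family at stage IV of Col-0 overlapped its sum in mature seeds through replicate 2 alone. That replicate summed to 253 TPM, while replicates 1 and 3 summed to 177 and 196 TPM, below all mature Col-0 libraries. HSFA9 was then at 0.0448 to 0.516 TPM. On the TMM scale 7 of the 10 members, HSFA9 among them, were lower there than in mature Col-0 seeds, and 3 were higher.

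**Figure D1:**
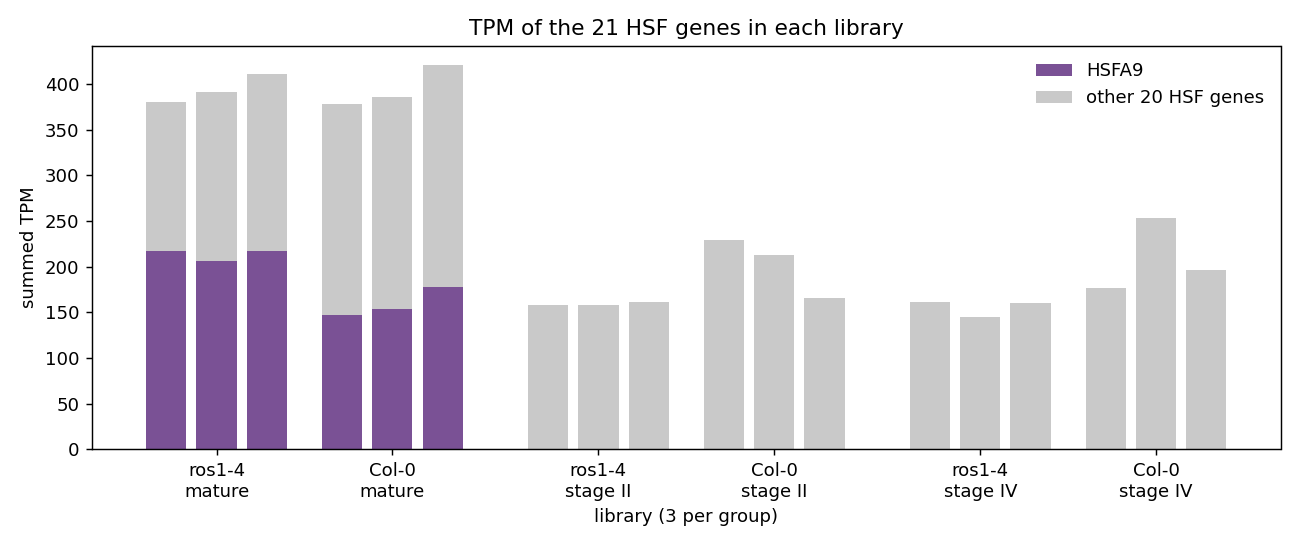
Summed TPM of the 21 HSF genes in each of the 18 libraries, with HSFA9 in purple and the other 20 genes in grey. HSFA9 fills at most 0.388% of the bar in germinating seeds and 38.8 to 57.0% in mature seeds.

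Per length the order of the other members in mature seeds was similar under both labels. In seeds labelled ros1-4 the TPM means were 37.8 for HSFA1E, 32.3 for HSFA1B, 20.2 for HSFC1, 13.5 for HSFA2, 13.2 for HSFA1A, 11.8 for HSFB2B, 4.24 for HSFA1D, 4.16 for HSFB1 and 0.0871 for HSFA3. Neighbours in that order that overlapped between libraries were HSFA1E with HSFA1B, HSFA2 with HSFA1A and HSFB2B, and HSFA1D with HSFB1. In mature Col-0 seeds the means were 50.3 for HSFA1E, 30.95 for HSFA1B, 27.1 for HSFC1, 26.0 for HSFA2, 16.7 for HSFB2B, 13.1 for HSFA1A, 6.38 for HSFB1, 5.01 for HSFA1D and 0.301 for HSFA3, and only HSFC1 and HSFA2 overlapped. At stage IV the repressor gene HSFB1 led under both labels, with 25.5 ± 4.6 TPM in seeds labelled ros1-4 and 39.4 ± 15 TPM in Col-0 (SD, n = 3 each). HSFA2 was at 3.08 ± 1.7 TPM in stage IV seeds labelled ros1-4, with a mean below that of all members except HSFA9 but libraries that overlapped those of HSFA3, and at 24.1 ± 14 TPM in stage IV Col-0 seeds, where its libraries ran from 9.95 to 37.7 TPM and overlapped those of HSFB1, HSFA1D, HSFB2B and HSFA1E.

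**Figure D2:**
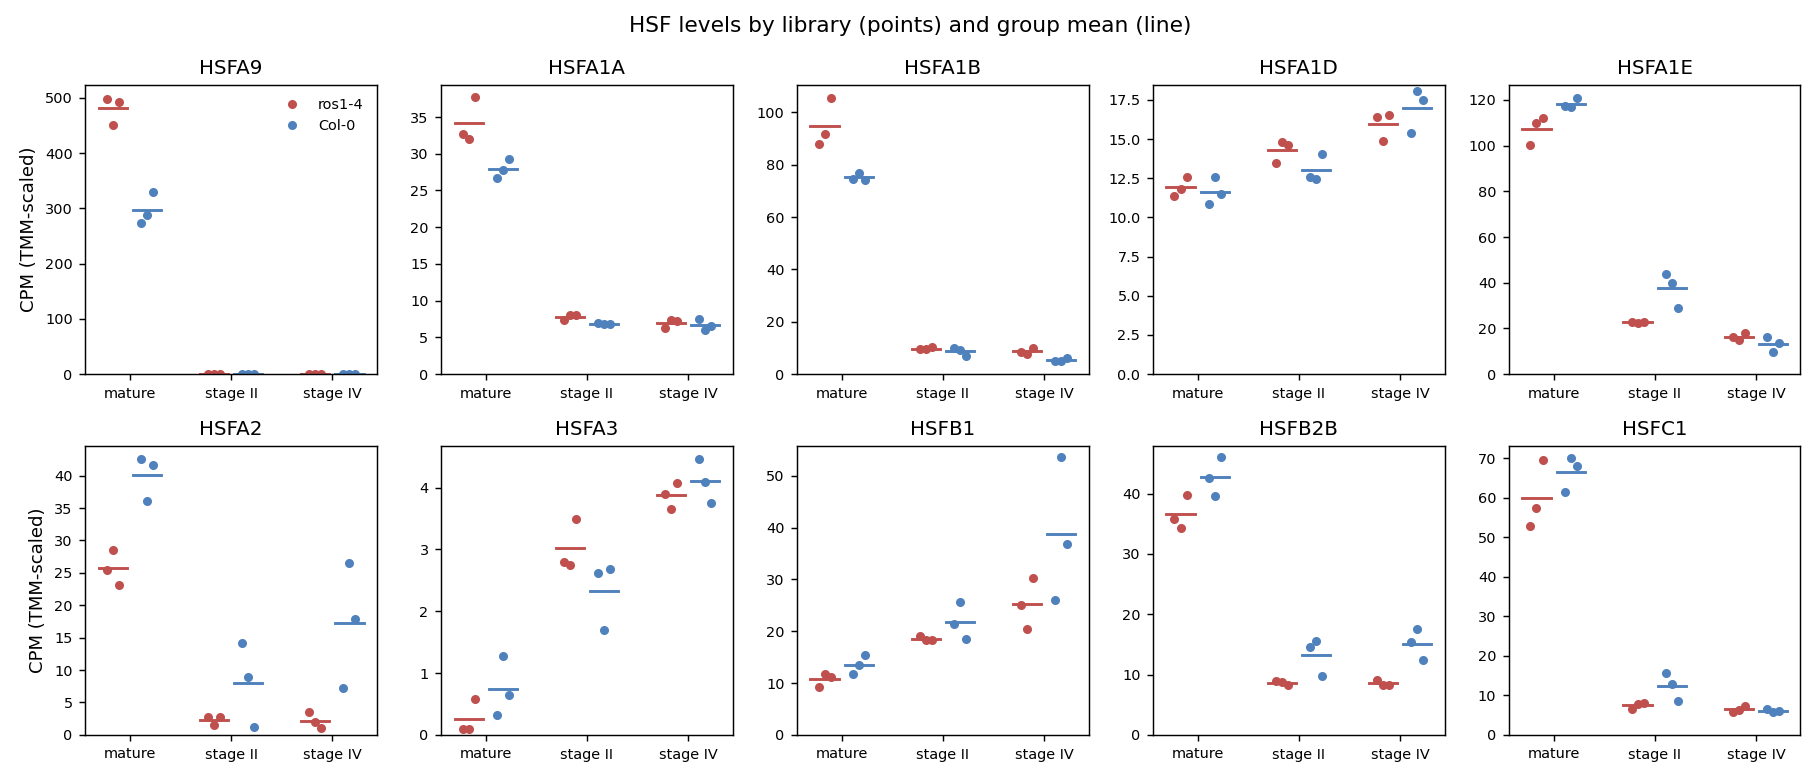
Level of each of the 10 HSF genes in CPM (TMM-scaled) by stage, with a point for each library, a line at the mean of 3 libraries, and libraries labelled ros1-4 left of Col-0; each panel has its own linear axis from 0. HSFA9 drops to near 0 after the mature stage, 6 other members fall, and HSFA3 and HSFB1 are higher in germinating seeds.

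The comparison of germinating with mature seeds asks how the family is reset when the dry seed germinates. In seeds labelled ros1-4 at stage II, 9 of the 10 members were called by edgeR's quasi-likelihood test at an adjusted p under 0.05, 2 higher and 7 lower, against 89.7% of all 18822 genes tested (50.3% higher and 39.3% lower), so the number called was near the background. The median log2 change of the members was -2.24 and that of all genes 0.33. At stage IV 10 of 10 were called under that label (background 88.9%), 3 higher (background 50.6%) and 7 lower (background 38.3%), with a median of -2.52 beside 0.39 for all genes. In Col-0, 9 of 10 were called at stage II (background 88.3%), HSFA3 and HSFB1 higher (background 47.3%) and 7 lower (background 41.0%), with a median of -1.89 beside 0.17. At stage IV of Col-0 10 of 10 were called (background 89.7%), 3 higher (background 49.4%) and 7 lower (background 40.3%), with a median of -1.79 beside 0.29. Within a label the comparisons share the mature libraries. The 7 genes that fell in each of them were HSFA9, HSFA1A, HSFA1B, HSFA1E, HSFA2, HSFB2B and HSFC1.

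The HSFA1 subclass did not move as one. HSFA1A had log2 changes of -2.18 (stage II) and -2.31 (stage IV) in seeds labelled ros1-4, and of -2.06 and -2.08 in Col-0, all of them called. Over the 14 alternatives, library totals alone among them, its smallest stage II falls were -0.82 under the label ros1-4 and -1.09 in Col-0, still called. HSFA1B had 211 to 283 counts in the germinating libraries labelled ros1-4 against 883, 963 and 1081 in the mature ones, and 127 to 247 counts in germinating Col-0 libraries against 944, 970 and 930 in mature ones. Its log2 changes were -3.34 and -3.45 in seeds labelled ros1-4 and -3.15 and -3.79 in Col-0. Those of HSFA1E were -2.30 and -2.73 in seeds labelled ros1-4 and -1.69 and -3.17 in Col-0, so 3 of the 4 subclass members fell at both stages. Over the same alternatives the smallest stage II falls of HSFA1B were -1.985 under the label ros1-4 and -2.18 in Col-0. Those of HSFA1E were -0.94 and -0.72, and all were still called. HSFA1D went against its relatives. The libraries labelled ros1-4 held 114, 124 and 129 HSFA1D counts when mature, then 370, 409 and 402 (stage II) and 437, 403 and 443 (stage IV). Those of Col-0 held 137, 159 and 144 counts when mature, then 312, 295 and 346 (stage II) and 390, 451 and 428 (stage IV). On the TMM scale HSFA1D was 0.40 higher at stage IV than in mature seeds under the label ros1-4 (adjusted p = 0.00504) and 0.53 higher in Col-0 (adjusted p = 0.00109), while its differences at stage II, 0.21 and 0.13, did not pass the test (adjusted p = 0.058 and 0.302). The first of these was called when replicate 3 of the mature libraries labelled ros1-4 was left out (0.25, adjusted p = 0.0488) and in a fit of all 18 libraries (adjusted p = 0.0381). By library total alone HSFA1D was called higher at stage II as well, by 1.57 in seeds labelled ros1-4 and 1.10 in Col-0, with the median of all genes then at 1.68 and 1.14.

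HSFA3, the DREB2A-dependent factor, was the member that rose most. Mature libraries labelled ros1-4 had 1, 1 and 6 HSFA3 counts, those of stage II 77, 76 and 96 and those of stage IV 104, 99 and 109. For Col-0 these were 4, 16 and 8, then 65, 40 and 66, then 113, 102 and 92 counts. Its libraries did not overlap between mature and germinating seeds. Relative to mature seeds the log2 rise in seeds labelled ros1-4 was 3.45 for stage II and 3.85 for stage IV, and that in Col-0 was 1.61 (adjusted p = 0.00523) and 2.45. HSFB1 rose as well, in seeds labelled ros1-4 by 0.74 to stage II and by 1.22 to stage IV, and in Col-0 by 0.65 (adjusted p = 0.00191) and 1.51, or 0.94 with the first Col-0 stage IV library alone (adjusted p = 4.87e-05). The other repressor gene, HSFB2B, fell, with log2 changes of -2.14 and -2.11 in seeds labelled ros1-4 and -1.72 and -1.51 in Col-0. HSFC1 fell too, with -3.05 and -3.22 in seeds labelled ros1-4 and -2.46 and -3.45 in Col-0. Over the 14 alternatives the smallest stage II falls of HSFB2B were -0.78 under the label ros1-4 and -0.75 in Col-0. Those of HSFC1 were -1.70 and -1.48, and all were still called.

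HSFA2 fell from the mature level under both labels, with a wide spread in germinating Col-0 seeds. The libraries labelled ros1-4 had 256, 300 and 237 counts when mature, 76, 41 and 77 in stage II and 94, 52 and 29 in stage IV, which gives log2 differences from mature seeds of -3.50 and -3.58. Those of Col-0 had 538, 456 and 523 counts when mature, 352, 211 and 28 in stage II and 183, 662 and 439 in stage IV, which gives -2.35 (adjusted p = 0.00243) and -1.23 (adjusted p = 0.00624). Scaled by library total alone, the stage IV difference in Col-0 was -0.28 (adjusted p = 0.457), while with the first Col-0 stage IV library alone it was -2.47 (adjusted p = 6.84e-09). Without Col-0 stage II replicate 3 the stage II difference was -1.83 (adjusted p = 1.26e-08).

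Between stage II and stage IV, 2 of 9 tested members were called in seeds labelled ros1-4 (background 39.9%, or 20.7% higher and 19.2% lower) and 6 of 9 in Col-0 (background 38.7%, or 21.8% higher and 16.8% lower). Under the label ros1-4 HSFA1E fell by 0.49 (adjusted p = 0.00105) and HSFB1 rose by 0.42 (adjusted p = 0.0192), a call lost without any 1 of the stage II libraries of that label (adjusted p up to 0.068). In Col-0 HSFA3, HSFA1D and HSFB1 were higher at stage IV by 0.83, 0.40 and 0.85 on the log2 scale (adjusted p = 0.0173, 0.0176 and 0.0319), and HSFA1B, HSFA1E and HSFC1 fell by 0.65, 1.48 and 1.00 (adjusted p = 0.0191, 0.00264 and 0.00885). HSFA1B, HSFA1D and HSFB1 lost their calls when 1 of several libraries was left out (adjusted p up to 0.0887), and HSFA3 lost its call without Col-0 stage IV replicate 2 (adjusted p = 0.0553), the fit in which HSFA1E and HSFC1 alone were called. With the first stage IV library of Col-0 alone, whose spread must then be assumed to be that of the other group, 0 members were called, and 195 of all genes in place of 7219. HSFA2, which the test did not call in either label, differed by 1.12 in Col-0 (adjusted p = 0.264).

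The comparison of ros1-4 with Col-0 in mature seeds asks what differs in the dry seed when the demethylase gene carries the insertion. Of 9 tested members 4 were called (background 26.8%, or 13.8% higher and 13.0% lower), HSFA9, HSFA1A and HSFA1B higher and HSFA2 lower in seeds labelled ros1-4, and the members' median of -0.12 stood beside -0.01 for all genes. HSFA9 was at 481 ± 26 CPM in seeds labelled ros1-4 and 297 ± 29 CPM in Col-0 (SD, n = 3 each), a log2 difference of 0.72 ± 0.078 (SE; adjusted p = 7.03e-06), and the lowest library labelled ros1-4 lay above the highest of Col-0. The difference was called under all 14 alternatives and ran from 0.38 with library totals alone (adjusted p = 0.00057) to 0.80. HSFA2 was at 25.7 ± 2.7 CPM against 40.1 ± 3.5 CPM, a log2 difference of -0.62 ± 0.10 (adjusted p = 0.000336), with no overlap of the libraries, although in a fit of all 18 libraries it was not called (adjusted p = 0.409). HSFA1A and HSFA1B were higher by 0.31 (adjusted p = 0.0201) and 0.36 (adjusted p = 0.00217) with TMM, but by library total alone their differences were -0.02 and 0.02 (adjusted p = 0.858 and 0.835), so both calls were lost and the sign for HSFA1A turned. HSFA1A also lost its call when replicate 3 of the libraries labelled ros1-4 or replicate 1 or 2 of Col-0 was left out (0.26 to 0.32, adjusted p up to 0.0902).

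HSFA1D, HSFA1E, HSFB1, HSFB2B and HSFC1 were not called in mature seeds, with log2 differences of 0.05, -0.12, -0.32, -0.20 and -0.13. By library total alone HSFA1E, HSFB1, HSFB2B and HSFC1 were called lower in seeds labelled ros1-4, with log2 differences of -0.45, -0.65, -0.54 and -0.46. That scaling called 7528 of all 15441 genes tested lower and 466 higher, with a median of -0.34. HSFA3 was left out of this test for low counts, and without the filter it was not called (-1.47, adjusted p = 0.197). Several marker lists moved with the label in these libraries. The 8 seed storage and late embryogenesis genes summed to 124800 to 134200 TPM in seeds labelled ros1-4 and 103300 to 104700 TPM in Col-0. With TMM, 7 of these 8 were called higher (background 13.8%). Of 6 germination genes, 5 were called lower (background 13.0%), with 4199 to 4433 TPM against 5918 to 6323 TPM summed. The 6 endosperm and seed coat genes summed to 11720 to 12770 TPM against 5547 to 8341 TPM. Of the 2 tested, 1 was called higher (background 13.8%), and ZOU, PHE1 and TT10 were at 3 counts or fewer. The part of these marker lists in the differences of HSFA9 and HSFA2 was not tested.

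**Figure D3:**
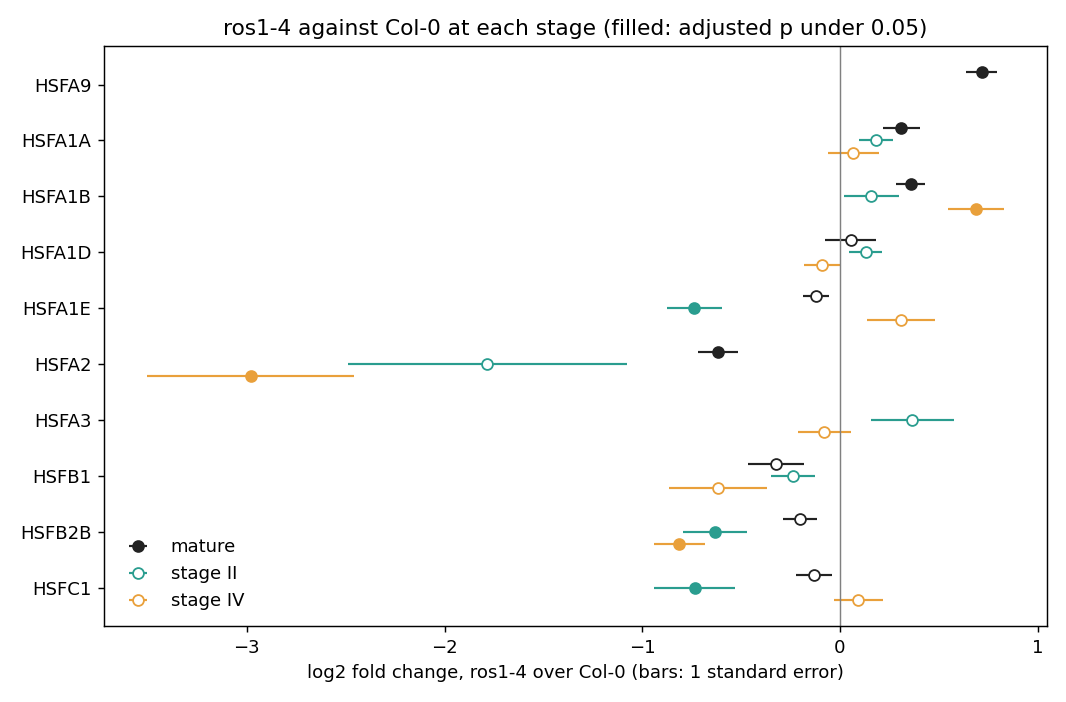
Log2 fold change of each HSF gene in seeds labelled ros1-4 over Col-0 for each of the 3 stages, with bars of 1 standard error and filled points at an adjusted p under 0.05. HSFA9 lies at 0.72 in mature seeds, and HSFA2 lies left of 0 at each stage with its widest bar at stage II; HSFA9 at stages II and IV and HSFA3 in mature seeds were too low to be tested.

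At stage II, 3 of 9 tested members were called (background 22.6%), all lower in seeds labelled ros1-4 (background 11.1% lower and 11.4% higher). HSFA1E had 622, 618 and 627 counts in seeds labelled ros1-4 and 1092, 945 and 711 in Col-0, or 22.6 ± 0.19 CPM against 37.6 ± 7.8 CPM, a log2 difference of -0.74 ± 0.14 (adjusted p = 0.00809). All 3 libraries labelled ros1-4 lay below all 3 of Col-0, and the call held when any 1 library was left out. HSFB2B was at 8.61 ± 0.29 CPM against 13.3 ± 3.0 CPM (-0.63 ± 0.16, adjusted p = 0.0267), and HSFC1 at 7.48 ± 0.87 CPM against 12.4 ± 3.6 CPM (-0.74 ± 0.20, adjusted p = 0.0366). Both lost their calls when any library other than Col-0 replicate 3 was left out, with adjusted p up to 0.0996 for HSFB2B and 0.132 for HSFC1, and by library total alone HSFC1 was not called (-0.68, adjusted p = 0.0515). HSFA2 was not called. With 76, 41 and 77 counts in seeds labelled ros1-4 and 352, 211 and 28 in Col-0 its difference of -1.78 ± 0.71 did not pass the test (adjusted p = 0.109), while leaving out Col-0 replicate 3 gave -2.30 (adjusted p = 1.38e-05), and the fit of all 18 libraries called it too (adjusted p = 0.045). HSFB1, with a difference of -0.24 (adjusted p = 0.171), was likewise called only without that library (adjusted p = 0.00691). In that library the ABA regulator gene ABI5 had 426 counts, against 1264 and 1474 in replicates 1 and 2. HSFA1A, HSFA1B, HSFA1D and HSFA3 differed by 0.18, 0.16, 0.13 and 0.37 and were not called.

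At stage IV, 3 of 9 tested members were called (background 8.22%), HSFA2 and HSFB2B lower (background 4.50%) and HSFA1B higher (background 3.72%) in seeds labelled ros1-4. HSFA2 had 94, 52 and 29 counts in seeds labelled ros1-4 and 183, 662 and 439 in Col-0, or 2.18 ± 1.2 CPM against 17.2 ± 9.7 CPM, a log2 difference of -2.98 ± 0.53 (adjusted p = 0.0173). All 3 libraries labelled ros1-4 lay below all 3 of Col-0, but the size rests on Col-0 replicates 2 and 3. With the first Col-0 library alone, an alternative chosen after seeing the data, it was -1.73 (adjusted p = 0.0872), and the call was lost when replicate 2 or 3 labelled ros1-4 or Col-0 replicate 2 was left out (adjusted p up to 0.0839). HSFB2B was at 8.57 ± 0.47 CPM against 15.1 ± 2.6 CPM (-0.81 ± 0.13, adjusted p = 0.0128), and with the first Col-0 library alone it was -0.84 (adjusted p = 0.0158). This repressor gene was thus the 1 member called there without the Col-0 libraries high in chaperone genes, although its call was lost without replicate 2 labelled ros1-4 (adjusted p = 0.0661). HSFA1B was at 8.78 ± 1.2 CPM against 5.46 ± 0.61 CPM (0.69 ± 0.14, adjusted p = 0.0262) and lost its call when any library labelled ros1-4 or Col-0 replicate 2 was left out (adjusted p up to 0.0887). HSFB1 had 667, 555 and 811 counts in seeds labelled ros1-4 and 660, 1336 and 902 in Col-0, a difference of -0.62 that was not called (adjusted p = 0.16), except without Col-0 replicate 1 (-0.84, adjusted p = 0.0357), in the fit of all 18 libraries (adjusted p = 0.041) and by DESeq2 (adjusted p = 0.0458). HSFA3, HSFA1A, HSFA1D, HSFA1E and HSFC1 differed by -0.08, 0.07, -0.09, 0.31 and 0.09 and were not called.

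Whether the change from mature to germinating seeds itself differed between the labels was tested as an interaction. At stage II it was called for 1 member (background 19.7%, or 10.4% higher and 9.24% lower), HSFA1E, which fell further in seeds labelled ros1-4 by 0.63 ± 0.15 on the log2 scale (adjusted p = 0.00971), though by library total alone the difference was -0.22 (adjusted p = 0.304). Without Col-0 stage II replicate 3, which is low in HSFA2, 5 members were called, HSFA2 among them (-1.70, adjusted p = 7.53e-05). Over all genes that fit called more as well, 2436 higher and 2182 lower of 19486 tested, in place of 2005 and 1779 of 19252. At stage IV it was called for 2 members (background 14.2%, or 8.70% higher and 5.52% lower). HSFA2 fell further in seeds labelled ros1-4 by 2.38 ± 0.54 (adjusted p = 0.0088), or by 1.12 with the first Col-0 stage IV library alone (adjusted p = 0.0734). HSFB2B fell further by 0.62 ± 0.16 (adjusted p = 0.0179), with -0.26 by library total alone (adjusted p = 0.248). That scaling called other members instead, HSFA3 (2.21), HSFA1D (0.47) and HSFA9, whose fitted value rests on counts at the floor, at stage II and HSFA1B, HSFA1E and HSFC1 beside HSFA2 at stage IV (0.68, 0.78 and 0.56), all of these 6 higher.

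HSFA2 has 4 annotated transcripts that differ in a 31-base exon at chr2:11136246-11136276, which is skipped in 2 of them and goes with a later annotated start of the coding sequence in the first exon (113 coding bases there with it, 309 without). The forms with that exon took 65.7 to 98.2%, 37.8 to 95.3% and 51.5 to 100% of HSFA2 counts in mature, stage II and stage IV seeds labelled ros1-4, and 87.3 to 94.8%, 52.4 to 74.3% and 64.1 to 75.9% in the same stages of Col-0. The reads are 50 bases long and single-end, so transcripts of a gene are divided by a model, and at these counts the ranges overlapped between the labels at each stage. HSFA9 overlaps a small nucleolar RNA gene on the other strand by 303 bases, HSFA1B overlaps SYP21 by 44 bases, HSFB2B overlaps AT4G11670 by 308 bases and a long noncoding RNA by 352, and HSFC1 a long noncoding RNA by 1808. The sources used here do not say whether strand was used in counting, so for these members reads of the partner gene cannot be told apart.

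Of the other 11 HSF genes, 8 were tested in mature seeds, and 3 were lower in seeds labelled ros1-4 (background 13.0%): HSFA4A (-0.32, adjusted p = 0.0393), HSFB2A (-0.48, adjusted p = 0.00972) and HSFB4 (-1.20, adjusted p = 0.00122). HSFB2A, of the same subclass as HSFB2B, was lower in germinating seeds too, with -0.80 in stage II (adjusted p = 0.0286) and -1.03 in stage IV (adjusted p = 0.0104). With 200, 143 and 154 counts in stage IV seeds labelled ros1-4 and 346, 337 and 261 in Col-0, it separated the labels without overlap. HSFA7B was lower at stage II and at stage IV (-0.77 at both, adjusted p = 0.00209 and 0.018; at stage IV 0.0648 with the first Col-0 library alone), and HSFA8 was higher (0.98 and 1.36, adjusted p = 0.0117 and 0.0113). HSFA5 was lower at stage II (-0.37, adjusted p = 0.0103). HSFA6A and HSFB3 had no more than 3 counts in any library, and HSFA6B had 31, 25 and 29 counts at stage II in seeds labelled ros1-4 and 27, 22 and 6 in Col-0, against 1 count or fewer in mature seeds. From mature to stage II seeds of Col-0, 2 of 8 tested rose (background 47.3%) and 4 fell (background 41.0%): HSFA7B and HSFB4 rose by 1.08 and 1.89 while HSFA4A, HSFA4C, HSFA8 and HSFB2A fell by 4.69, 1.55, 2.94 and 1.01, the last of these only with TMM (-0.04 by library total alone, adjusted p = 0.867).

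The genes upstream of the family were read from lists of seed regulators and of HSF inputs, that is activators of HSF genes and proteins that bind HSFs. In Col-0 all 4 tested seed regulators fell from mature to stage II seeds (background 41.0%), FUS3 with a log2 change of -6.44 and ABI5 with -3.75, and BZIP67 had 0, 2 and 1 counts at stage II against 24, 19 and 17 in mature seeds. ABI3, the activator of HSFA9 in maturing seeds, fell by 0.96, but by library total alone it stood at 0.01, and it kept 5936, 6335 and 4093 counts at stage II against 5164, 5431 and 5470 in mature seeds. The same stage II libraries held 2, 1 and 0 HSFA9 counts, and a link between the levels of both genes was not tested. In mature seeds labelled ros1-4 ABI5 was higher (0.45, adjusted p = 0.00111) and FUS3 lower (-0.51, adjusted p = 0.0246) than in Col-0, and ABI3 was higher with TMM (0.30, adjusted p = 0.00242) and not by library total alone (-0.03, adjusted p = 0.689). At stage II ABI3 was lower in seeds labelled ros1-4 (-0.60, adjusted p = 0.0241) and at stage IV higher (0.71, adjusted p = 0.028), but not called there with the first Col-0 library alone (adjusted p = 0.174).

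DREB2A, the activator of HSFA3 and named here after its values were seen, ran opposite to it. Libraries labelled ros1-4 had 7598, 7368 and 8226 DREB2A counts when mature, 648, 653 and 681 in stage II and 588, 401 and 498 in stage IV. Those of Col-0 had 7612, 7704 and 7435, then 1086, 732 and 238, then 140, 195 and 215 counts. Its relative DREB2C, which was far below it, had 44, 43 and 47 counts in stage II seeds labelled ros1-4 and 5, 7 and 3 in Col-0, a log2 difference of 2.95 (adjusted p = 0.000616), and DREB2B was 1.82 higher at stage IV (adjusted p = 0.0121). HSFA3 itself was not called at either stage. Of the 14 HSF inputs, 3 were higher and 6 lower in mature seeds labelled ros1-4 than in Col-0 (background 26.8% either way), 2 higher and 1 lower at stage II (background 22.6%), a share near the background, and 2 higher and 5 lower at stage IV (background 8.22%), or 3 higher and 1 lower with the first Col-0 library alone. Among the constitutive HSP70 genes in mature seeds, HSC70-3 had 854, 698 and 719 counts in seeds labelled ros1-4 against 2631, 2034 and 2259 in Col-0 (-1.28, adjusted p = 3.51e-07), HSC70-2 differed by -1.61 (adjusted p = 0.000369) and HSC70-1 by -0.62 (adjusted p = 2.5e-05). These 3 chaperone genes were also lower by library total alone.

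The small heat shock protein genes are the best known targets of HSFA9. From mature to stage II seeds of Col-0, 13 of 15 tested fell (background 41.0%) and 1 rose (background 47.3%), with a median log2 change of -8.81 beside 0.17 for all genes, or -7.40 where the 5 genes at the floor in a group were set at their bounds. The 8 seed storage and late embryogenesis genes all fell in the same comparison, with a median of -9.09. Summed over 16 genes they reached 126 to 221 TPM in germinating seeds, against 8441 to 9142 TPM in mature seeds labelled ros1-4 and 7031 to 8302 TPM in mature Col-0 seeds. HSP17.7-CII alone had 70094, 64872 and 70991 counts in mature seeds labelled ros1-4 and 54764, 60260 and 64274 in Col-0, 67.3 to 68.0% of the summed TPM, and fell by 12.57 on the log2 scale to stage II in Col-0. HSP17.4-CI fell by 11.50 on the same scale, and HSP22 had 0 counts in all 3 stage II libraries of Col-0. The 1 that rose, HSP15.4, which was named after its values were seen, had 1089 to 1811 counts in germinating seeds and no more than 3 in mature seeds. All 7 other heat target genes tested fell, with log2 changes of -9.27 and -8.50 for the chaperone genes HSP70B and HSP101 and -8.93 for the galactinol synthase gene GOLS1.

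Between the labels, HSP17.4-CI and HSP17.7-CII were higher in mature seeds labelled ros1-4, by 0.67 (adjusted p = 2.34e-05) and 0.52 (adjusted p = 3e-04), and by 0.33 and 0.18 with library totals alone (adjusted p = 0.00129 and 0.0431). These are the same libraries in which HSFA9 was higher by 0.72, and 11 of the 15 small heat shock protein genes tested were not called (background 26.8% called), with a list median of -0.07. Of those called, 2 were higher (background 13.8%) and 2 lower (background 13.0%), with HSP22 among the lower (-0.36, adjusted p = 0.0268). At stage II HSP17.7-CII had 167, 87 and 321 counts in seeds labelled ros1-4 and 19, 19 and 20 in Col-0 (3.12, adjusted p = 0.0042), and HSP17.4-CI had 84, 40 and 172 against 13, 11 and 13 (2.81, adjusted p = 0.0102). The 3 libraries labelled ros1-4 lay above the 3 of Col-0 in both genes and spread widely among themselves. In these stage II libraries the storage and late embryogenesis genes summed to 1133 to 1589 TPM under the label ros1-4 and 251 to 409 TPM in Col-0, and their part in these 2 differences was not tested. Of 9 small heat shock protein genes tested at stage II, 2 were higher (background 11.4%) and 2 lower (background 11.1%), with a median of 0.08. HSP17.6A-CI was among those lower in seeds labelled ros1-4 (-2.24, adjusted p = 0.0376). Among 7 other heat target genes tested, the coactivator gene MBF1C was lower (-1.96, adjusted p = 0.0271) and GOLS1 higher (1.34, adjusted p = 0.023), and 5 were not called.

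At stage IV, 1 of 11 tested small heat shock protein genes and 1 of 7 other heat target genes were called, both lower in seeds labelled ros1-4 (background 4.50%), beside the HSF inputs counted above. The chaperone genes named next were high in the Col-0 libraries in which HSFA2 was high. HSP70-4 had 630, 663 and 651 counts in seeds labelled ros1-4 and 1117, 5691 and 4749 in Col-0 (-2.68, adjusted p = 0.0215). HSP90.1 had 230, 242 and 241 counts against 297, 1403 and 1239 (-2.15, adjusted p = 0.0372). HSP101 had 93, 83 and 155 counts against 165, 584 and 488 (-2.01, adjusted p = 0.0359). In these 3 genes Col-0 replicate 1 was nearer to the libraries labelled ros1-4 than to Col-0 replicates 2 and 3. With the first Col-0 library alone HSP70-4 differed by -0.86 (adjusted p = 0.00552), HSP90.1 by -0.40 (adjusted p = 0.153), HSP101 by -0.66 (adjusted p = 0.342) and HSP17.8-CI by -0.73 in place of -2.54 (adjusted p = 0.437 in place of 0.0383). What set replicates 2 and 3 apart was not tested.

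**Figure D4:**
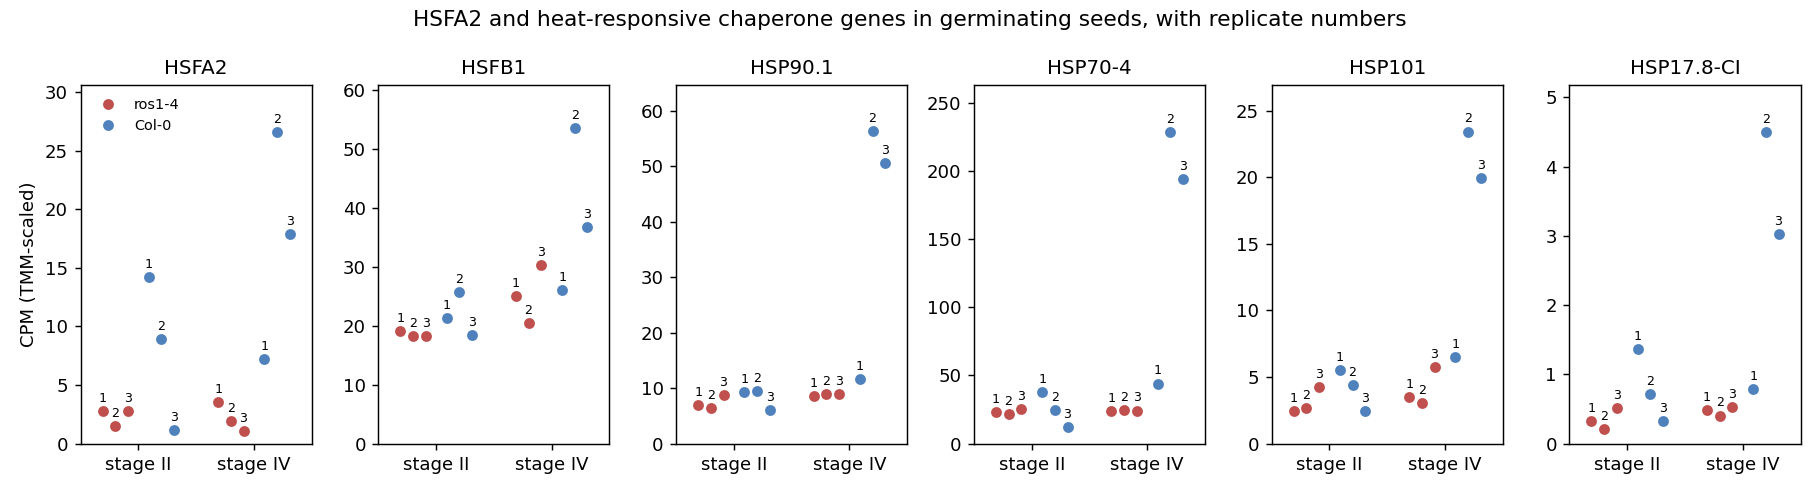
Level in CPM (TMM-scaled) of HSFA2, HSFB1 and 4 chaperone genes in each germinating library, with libraries labelled ros1-4 left of Col-0, replicate numbers above the points and a linear axis from 0 in each panel. At stage IV Col-0 replicates 2 and 3 lie above replicate 1 and above all 3 libraries labelled ros1-4 in all 6 genes, and at stage II Col-0 replicate 3 is low in HSFA2.

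The genes whose log2 CPM ran most like that of a member over the 18 libraries were taken from 15821 genes with at least 5 CPM in some group, as a description, since all libraries share the step from mature to germinating seeds. For HSFA9 they were AT1G29680 and AT5G55135 (Pearson r = 0.9993 each) and AT2G31985, AT2G28780 and AT5G04500 (0.9992 each), all present in mature seeds and near 0 later. For HSFA2 they were AT3G12050 (0.9309), AT1G66080 (0.9275), HSFB2A (0.9270), AT1G61890 (0.9219) and GSTU5 (0.9204). For HSFB2B they were SUVH9 (0.9831), ABCI19 and AT4G38540 (0.9811 each), AT5G07710 (0.9789) and MBF1C (0.9781). HSFA3 stayed under 5 CPM in each group and was not ranked.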

How the data were processed

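RNA from whole seeds was sequenced by the authors as single-end reads of 50 bases in 18 libraries, 3 for each of 6 groups, and assigned by Salmon to the transcripts of Araport11. The authors deposited estimated counts per transcript, normalized neither for depth nor for length, beside transcript and effective lengths. Here the counts were summed to genes and rounded, and 24273 of 27587 genes had a count. The table held no further columns of samples (0 left out). Library totals were 18737837 to 20787603. Short reads of close paralogs, such as the small heat shock protein and HSP70 genes, are divided by Salmon's model, so their levels are uncertain, and the strand setting is not given in the sources used here.

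Each comparison was fitted over all genes on its own 6 libraries (interactions on 12) with edgeR 4.0.16 in R 4.3.3: TMM factors, filterByExpr, the two-sided quasi-likelihood test and Benjamini-Hochberg adjustment, with a gene called at an adjusted p under 0.05. Samples were grouped by their labels. The study's own test, DESeq2 (here 1.42.0), was an alternative, as were its size factors, library totals alone, no filter, all 18 libraries in one fit, a replicate block, robust estimation, an adjusted p under 0.01 and leaving out each replicate. The fit with the first stage IV library of Col-0 alone was chosen after seeing the data. TPM was computed from counts and effective lengths, without TMM scaling. It served to compare genes with each other and to sum lists of genes, so sums set side by side between groups are not TMM-scaled. Counts of 3 or fewer in each library of a group were taken as the floor. Positions and sequences came from RefSeq TAIR10.1, whose transcripts matched 48072 of 48268 by identifier, all of equal length. The statistics were tested on simulated data.

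Named were the 10 members, ROS1, the other 11 HSF genes, up to 3 called genes with the largest change per further list in stage II against mature seeds of Col-0 and in each comparison of the labels, and the 5 genes most correlated with HSFA9, HSFA2, HSFA3 and HSFB2B over the 18 libraries (log2 of CPM plus 1). The members and lists were chosen with earlier results of these data known. The study states biological replicates without saying whether they came from separate plants, so p-values measure the spread between these seed pools.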

Additional observations from a re-analysis of the deposited data

Results flagged for a closer look

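In 3 results the change between mature and germinating seeds differed between the labels by an interaction test over 12 libraries with edgeR. They are 1 of 10 members at stage II (background 19.7% of all genes) and 2 of 10 at stage IV (background 14.2%). The numbers called were thus near or below the background. HSFA1E fell further to stage II in seeds labelled ros1-4 than in Col-0, with a log2 interaction of -0.6304 (adjusted p = 0.00971). HSFA2 fell further to stage IV in seeds labelled ros1-4, with -2.375 (adjusted p = 0.0088). HSFB2B fell further to stage IV in seeds labelled ros1-4, with -0.6231 (adjusted p = 0.0179). By library total alone the values were -0.22 for HSFA1E (adjusted p = 0.304) and -0.26 for HSFB2B (adjusted p = 0.248), and with the first stage IV library of Col-0 alone HSFA2 was at -1.12 (adjusted p = 0.0734) and HSFB2B at -0.65 (adjusted p = 0.0154).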

How the results depend on the processing

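Under the alternatives run, the number of members called stayed within 1.5 times in mature seeds (3 to 6) and in germinating against mature seeds (9 to 10). The others moved, and beyond the fewer libraries or stricter threshold of some alternatives the cause was not tested. For seeds labelled ros1-4 against Col-0, stage II had 3 calls, 1 at an adjusted p under 0.01 and 1 to 5 with a library left out, and stage IV had 3, 0 at an adjusted p under 0.01, 1 with the first Col-0 library alone and 0 to 4 with a library left out. Between stages II and IV, seeds labelled ros1-4 had 2, 1 in the fit of 18 libraries, 1 at an adjusted p under 0.01 and 1 to 3 with a library left out, and Col-0 had 6, 2 at an adjusted p under 0.01, 0 with the first library alone and 2 to 5 with a library left out. The interaction had 1 call at stage II (2 with size factors or DESeq2, 3 with library totals, 1 to 5 with a library left out) and 2 at stage IV (4 with library totals, 1 with robust estimation, with an adjusted p under 0.01 or with the first library alone, 2 to 3 with a library left out).
Over all genes, library totals alone turned 2135 higher and 2006 lower calls in mature seeds into 466 and 7528, the 3784 and 2811 calls of the interactions into 7914 and 6536 (7450 and 6202 of them higher), and 2117 and 2065 calls of the labels at stage II into 2823 and 1408. The higher and lower calls of germinating against mature seeds became 13900 and 3516 (stage II) and 13893 and 3575 (stage IV) under the label ros1-4, and 12157 and 4316 in place of 8693 and 7535 (stage II) and 12608 and 4630 (stage IV) in Col-0. For the labels at stage IV 1564 genes were called, 2652 in the fit of 18 libraries, 701 with the replicate block and 291 to 1646 with a library left out, and at stage II 4182, 2150 to 6934 with a library left out. At an adjusted p under 0.01 the calls over all genes were 2472, 1861 and 256 for the labels at the 3 stages, 4243 of 7552 between stages IV and II of seeds labelled ros1-4 and 3395 of 7219 between those of Col-0, and 1995 and 1249 for the interactions (1809 at stage IV with the first Col-0 library alone).
Directions turned only in differences that were not called or, for HSFA1A in mature seeds, with library totals. With library totals alone the log2 values were -0.0236 (HSFA1A) and -0.28 (HSFA1D) for the labels in mature seeds, 0.267 (HSFA1A) and 0.1945 (HSFA1B) for the interaction at stage II, and 0.1031 (HSFA1A), 0.2013 (HSFA1D) and 0.0445 (HSFB1) at stage IV. With the first Col-0 stage IV library alone they were -0.0918 (HSFA1A) and 0.0543 (HSFA1D) for the labels at stage IV, -0.1372 (HSFA2) and 0.1389 (HSFA1A) for Col-0 between stages IV and II, and 1.017 (HSFA9) and 0.267 (HSFB1) for the interaction at stage IV. In the fit of 18 libraries ROS1 and HSFB2B differed by 0.0236 and 0.0177 between stages IV and II labelled ros1-4. With a library left out, the ranges that crossed 0 were -0.0016 to 0.1281 for HSFA1D (labels, mature), -0.0073 to 0.1601 for HSFC1 (labels, stage IV), -0.112 to 0.0454 for HSFA1A (Col-0, stage IV against II), -0.0862 to 0.0375 for ROS1, -0.6529 to 0.1919 for HSFA2 and -0.0622 to 0.0073 for HSFB2B (labelled ros1-4, stage IV against II), -0.0067 to 0.1504 for HSFA1D and -0.0372 to 0.202 for HSFB1 (interaction, stage II), and -2.45 to 0.124 for HSFA9 (interaction, stage IV).
Replicate numbers did not pair the libraries, since same-numbered libraries did not deviate together, and the replicate block took the calls of HSFC1 at stage II (adjusted p = 0.0813), HSFA2 at stage IV (adjusted p = 0.0522) and HSFA1B between the stages of Col-0 (adjusted p = 0.0534). Robust estimation took those of HSFC1 at stage II, of HSFA2 at stage IV (between the labels, against mature Col-0 seeds and in the interaction) and of HSFB1 between the stages of Col-0. Depth limits HSFA9 after the mature stage and HSFA3 in mature seeds, which had 16 counts or fewer.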
